A study of Homo sapiens with 2 samples.

Results

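The chromogranin-high, galanin-low cells are 168 of the 2879 cells measured in untreated SH-SY5Y (SY5Y), a human neuroblastoma line. They were chosen from 1675 cells that came from 1 flask by their hashtags, had at least 1000 genes, a mitochondrial share under 15% and under 20 UMIs of galanin (GAL) per 10000. A UMI is a molecular tag that counts 1 captured transcript. The members are the 10% of these cells with the most UMIs of chromogranin A (CHGA) and chromogranin B (CHGB) per 10000, and the other 1507 cells are the cells they were compared with.

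The study split 1 culture into 2 flasks, called SplitA and SplitB, grew both without treatment, tagged each with an antibody hashtag of its own and pooled them into 1 library (CITE-seq). SplitA gave 75 members and 662 other cells, and SplitB gave 93 members and 845 other cells. All groups are therefore untreated cells of the same line, and the groups compared were separated only by their chromogranin level. Because the flasks came from the same culture, p-values cover no spread between cultures, and the spread between these flasks may be technical. The fit pools spread across genes, so a small p-value does not show that the flasks agreed, as for CARTPT below. SY5Y was obtained by repeated subcloning, so the cells stand for 1 clonal line. The members hold 627363 UMIs in SplitA and 754340 in SplitB, and the other cells 4329237 and 5652003.

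Chromogranins are acidic proteins that are packed into dense-core granules, the organelles from which neuroendocrine cells release hormones, neuropeptides and catecholamines. They bind calcium and catecholamines in the granule and are cut into peptides by prohormone convertases. Neuroblastoma arises from the sympathoadrenal lineage, whose mature cells are sympathetic neurons and adrenal chromaffin cells, and chromogranins are among its long-known secreted markers.

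CHGA lies on chromosome 14 (GRCh38, chr14:92923150-92935285, plus strand) and CHGB on chromosome 20 (chr20:5911510-5925353, plus strand). The stretch just before the start of CHGA is shown beside that of VGF, another granule protein gene described below, because both hold the letters TGACGTCA. These letters are the palindrome of the cAMP response element, so they read alike on both strands, and no other motif was searched. The sequences are the 100 bases before the gene start in RefSeq (GRCh38.p14), and the motif is in capitals.

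CHGA, chr14:92923050-92923149, plus strand: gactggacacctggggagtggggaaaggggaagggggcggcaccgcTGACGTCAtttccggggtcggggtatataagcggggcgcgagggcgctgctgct

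VGF, chr7:101165570-101165669, minus strand: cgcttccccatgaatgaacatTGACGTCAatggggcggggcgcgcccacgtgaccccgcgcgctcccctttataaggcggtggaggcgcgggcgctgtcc

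The motif begins 54 bases before the start of CHGA and 79 bases before that of VGF. In windows of 250 bases before the start, it was found in 1.65% of 35116 promoters in the table. Of CHGA, CHGB and the granin list, 13 genes had a promoter there, and CHGB had none. The motif was found in 3 of their 21 promoters, those of CHGA, PCSK1 and VGF. It was found in 2.8% of the promoters of tested genes, in 3.38% of those of genes higher in the members and in 3.1% of those of genes lower in them. A match is a description of letters and not of a bound site.

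The rule fixes that the members are high in chromogranins, so the following values describe the choice and were not tested. CHGA was at 1262 CPM (UMIs per 1000000 UMIs of the sum) in the SplitA members and 1137 in the SplitB members, against 176 and 151 in the other cells. CHGB was at 510 and 286 CPM in the members, against 44.1 and 46.2 in the other cells. Single members held 3 to 84 UMIs of both genes together, with a median of 9. Both genes were seen in 119 members, 48 had no CHGB UMI and 1 had no CHGA UMI. The summed level was 7.79, 7.85 and 7.89 UMIs per 10000 in the 3 members closest to the limit and 7.78, 7.73 and 7.71 in the 3 cells just outside it. At the other end, 534 cells had no UMI of either gene.

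**Figure D1:**
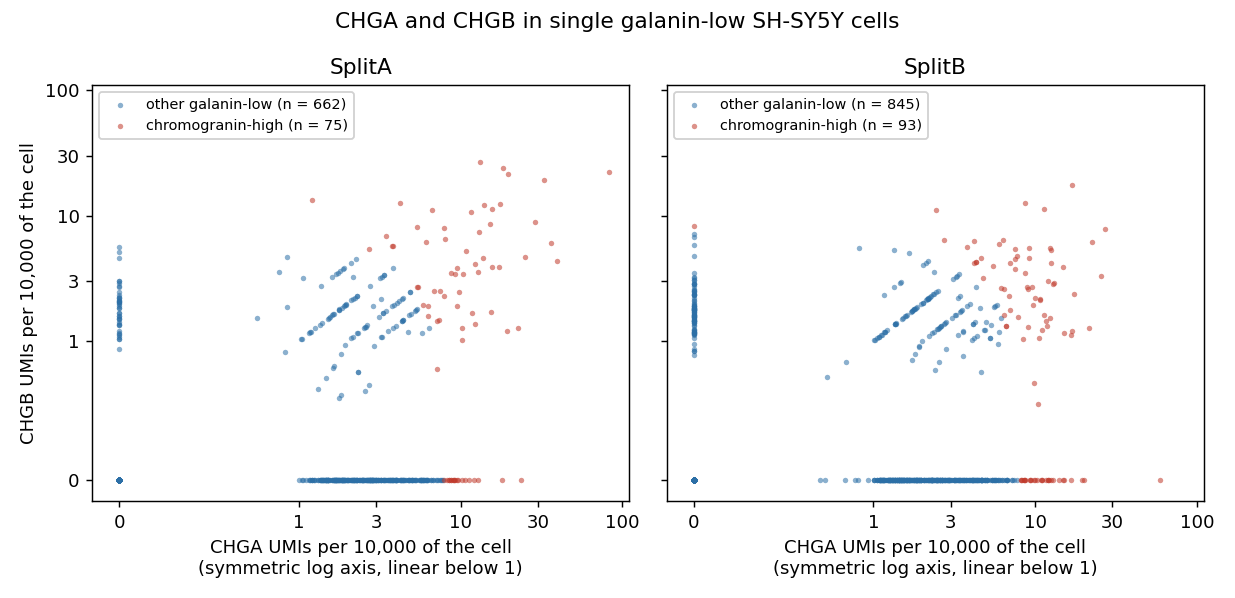
CHGA (x axis) against CHGB (y axis) in UMIs per 10000 for each galanin-low cell of SplitA and SplitB, on symmetric log axes that are linear below 1. Each point is a cell, with the 168 chromogranin-high cells in red and the 1507 other cells in blue, and 48 members sit at 0 CHGB.

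Whether the chromogranins rose together was asked by choosing the cells with 1 of the genes and measuring the other. Among the cells highest in CHGA alone, CHGB was at 411 CPM in SplitA and 229 in SplitB, against 58.1 and 54.4 in the other cells. The fitted ratio was 5.59-fold (log2 2.48, SE 0.12, adjusted p = 1.35e-33, edgeR quasi-likelihood test), in a comparison that called 5.46% of 9840 genes. Among the cells highest in CHGB alone, CHGA was at 926 and 650 CPM, against 231 and 224. That ratio was 3.25-fold (log2 1.70, SE 0.11, adjusted p = 5.17e-07, edgeR), in a comparison that called 1.14% of 9840 genes. In both directions and both flasks the chosen cells were higher, and the counting intervals of chosen and other cells did not overlap. At least 1 CHGB UMI was found in 59.7% of the CHGA-chosen SplitA cells (47.9 to 70.8%, exact binomial interval) and 56% of those of SplitB (45.3 to 66.4%), against 23.2% and 26.1% of the other cells. The library holds no cell type that should lack these genes, so the share that free RNA would give was not measured here.

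Across all other genes, the lists of catecholamine genes and endoplasmic reticulum chaperones held genes that were higher in the members than in the rest of their flask, and the cell cycle lists held lower ones. UMIs were summed over the members and over the other cells of each flask, and the 4 sums were compared with flask as a block. Of 9839 genes tested, 286 were higher in the members (2.91%) and 349 were lower (3.55%), by edgeR at an adjusted p under 0.05. The flasks had the same direction for 283 and 347 of them, and for 60.8% of all tested genes. DESeq2 called only 34 of the higher and 46 of the lower genes. In a further fit every cell was thinned to 2000 UMIs and the members were chosen again from the thinned counts, which gave 78 SplitA and 89 SplitB members in place of 75 and 93. In this thinned fit, 22 of 72 named genes that were called and could be tested passed again, and the lower depth and the new choice of members cannot be told apart in it. The median log2 ratio of all tested genes was 0.01. Each list count given below stands against the 2.91% higher and 3.55% lower of all tested genes.

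**Figure D2:**
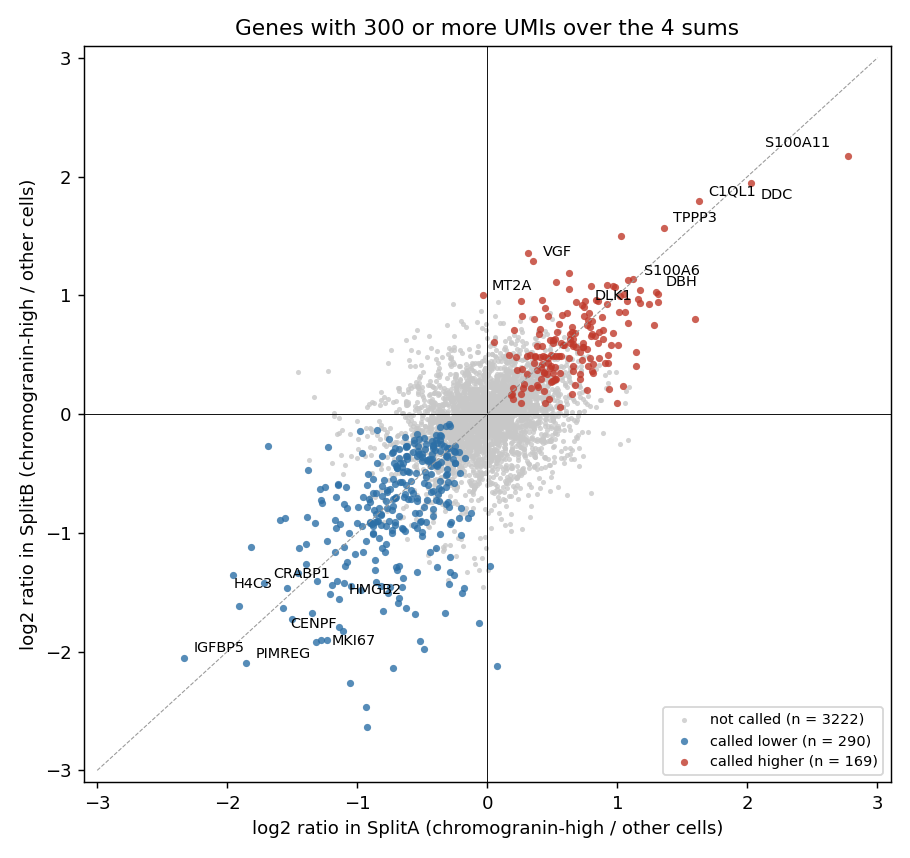
Log2 ratio of chromogranin-high to other cells in SplitA (x axis) against SplitB (y axis) for genes with 300 or more UMIs over the 4 sums. Red points are genes called higher, blue points genes called lower and grey points the rest; S100A11 and DDC lie at the upper right near the diagonal, while MT2A lies at -0.04 in SplitA and 1.00 in SplitB.

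The genes of catecholamine synthesis and transport held some of the largest rises. This pathway turns tyrosine into dopamine and noradrenaline and loads them into the same granules that hold chromogranins. Of 19 listed genes 13 were tested, 7 were higher and none was lower, with a median log2 ratio of 0.51 against 0.01 over all genes. Their summed level was 2160 CPM in the SplitA members and 1967 in the SplitB members, against 1249 and 1208 in the other cells, and PCBD1 was the most abundant gene with 26.1% of the UMIs.

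DDC (chr7:50458436-50565405, minus strand), the enzyme that makes dopamine from L-DOPA, was at 243 CPM in the SplitA members and 238 in the SplitB members. In the other cells it was at 59.4 and 61.6. The ratio was 3.97-fold (log2 1.99, SE 0.12, adjusted p = 4.75e-60, edgeR), and both flasks gave nearly the same value. At least 1 DDC UMI was found in 62.7% of the SplitA and 54.8% of the SplitB members, against 26.7% and 26.3% of the other cells. With every cell thinned to 2000 UMIs and the members as first chosen, the shares were 33.3% and 36.6%, against 9.52% and 9.48%.

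DBH, which converts dopamine into noradrenaline inside the granule, was at 616 and 465 CPM in the members and at 250 and 228 in the other cells (log2 1.17, SE 0.09, adjusted p = 4e-38, edgeR). CYB561, the granule cytochrome that supplies electrons for that reaction, was at 407 and 313 against 180 and 164 (log2 1.06, SE 0.10, adjusted p = 2.23e-25, edgeR). SLC18A1, the transporter that loads monoamines into granules, was at 84.6 and 58.4 against 28 and 33.6 (log2 1.18, SE 0.19, adjusted p = 2.79e-08, edgeR). DESeq2 called DDC, DBH and CYB561 but not SLC18A1 (adjusted p = 0.0687). TH, the first enzyme of the pathway, was too low to test: the members held 3 and 2 of its UMIs in SplitA and SplitB and the other cells 3 and 1. GCH1, which makes the cofactor of TH, was higher (log2 1.01, adjusted p = 3.47e-05, edgeR), but was not among the 3 genes of this list that DESeq2 called. TH and GCH1 were named after their values were seen.

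Of 13 listed granin and prohormone processing genes beside CHGA and CHGB, 9 were tested. SCG2 and VGF were higher and none was lower, against 2.91% higher and 3.55% lower over all genes. DESeq2 called 0 of them, and VGF rested mostly on 1 cell, as described below. No UMI of PCSK1 or QPCT was found in members or other cells. SCG2 (secretogranin II) was at 47.9 and 47.8 CPM in the members and at 27.7 and 28.7 in the other cells (log2 0.76, SE 0.22, adjusted p = 0.00976, edgeR; DESeq2 adjusted p = 0.851). In the thinned fit SCG2 was at 0.73 and not called (adjusted p = 0.681, edgeR). Among cells below the median in cycle gene UMIs SCG2 was called (1.12, adjusted p = 0.00945, edgeR). SCG3 (secretogranin III), a sorting partner of CHGA, was at 150 and 138 against 150 and 148, a log2 ratio of -0.05 (SE 0.12, adjusted p = 0.902, edgeR). PCSK1N, an inhibitor of a prohormone convertase and the most abundant gene of the list, had a log2 ratio of 0.04 (SE 0.10), and CPE, which trims the cut peptides, 0.38 (SE 0.20), and neither was called. PAM, which amidates them, had 0.21 (SE 0.25), CPD 0.23 (SE 0.34), PCSK6 0.82 (SE 0.57) and FURIN -0.75 (SE 0.65), and none of the 4 was called. PCSK2 had 1 UMI in the members of each flask and 0 in the other cells. SCG5 had 5 and 4 in the members and 7 and 6 in the other cells, and both were too low to test.

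VGF, a secreted precursor of several peptides, was carried mostly by 1 cell in SplitB. It was at 203 CPM in the SplitA members and 492 in the SplitB members, against 159 and 202 in the other cells, and it was called higher (log2 0.94, SE 0.10, adjusted p = 1.21e-19, edgeR). A single SplitB member held 203 of the 371 VGF UMIs of its group, or 54.7%. Without that cell the SplitB log2 ratio was 0.16 in place of 1.29. The neuropeptide precursor CARTPT was likewise called higher (log2 2.88, adjusted p = 3.72e-21, edgeR), but 1 SplitB member held 58 of 68 UMIs, and in SplitA it was at 4.79 in the members and 9.01 in the other cells.

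The other neuropeptides did not move one way. Of 24 listed genes 7 were tested, 2 were higher and 3 lower. NMB (neuromedin B) was at 209 and 166 CPM against 122 and 126 (log2 0.59, SE 0.12, adjusted p = 2.19e-05, edgeR; DESeq2 adjusted p = 0.205). CALCB, a calcitonin gene-related peptide, was at 9.58 and 6.64 against 29.6 and 23 (log2 -1.70, SE 0.38, adjusted p = 0.000393, edgeR), and NMU (neuromedin U) at 6.39 and 3.98 against 21 and 17.7 (log2 -1.91, SE 0.46, adjusted p = 0.00136, edgeR). In the thinned fit, with its own members, the NMU ratio was 0.094 (adjusted p = 0.986, edgeR). CALCB was called there (-7.647, SE 1.833, adjusted p = 0.0105, edgeR). Among cells below the median in cycle gene UMIs CALCB was at -1.89 and NMU at -2.215, not called (adjusted p = 0.0928 and 0.172, edgeR). The SplitA and SplitB members held only 6 and 5 CALCB UMIs and 4 and 3 NMU UMIs, and DESeq2 gave neither gene an adjusted p. NPY, which held 62.5% of the list's UMIs, was lower as well (log2 -0.34). Of 36 tested genes of granule exocytosis, PTPRN, a granule membrane protein (log2 0.80), and SYT5, a calcium sensor of fusion (log2 0.91), were higher, and SYT4, another synaptotagmin, was lower (log2 -0.89). Over all genes tested 2.91% were higher and 3.55% lower. DESeq2 called none of these 3 granule genes (adjusted p = 0.472, 0.51 and 0.609). In the thinned fit they were at 0.44, 1.06 and -1.65, and none was called (adjusted p = 0.836, 0.225 and 0.184, edgeR). None of the 16 tested subunits of the vacuolar ATPase, the pump that acidifies granules, was called.

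**Figure D3:**
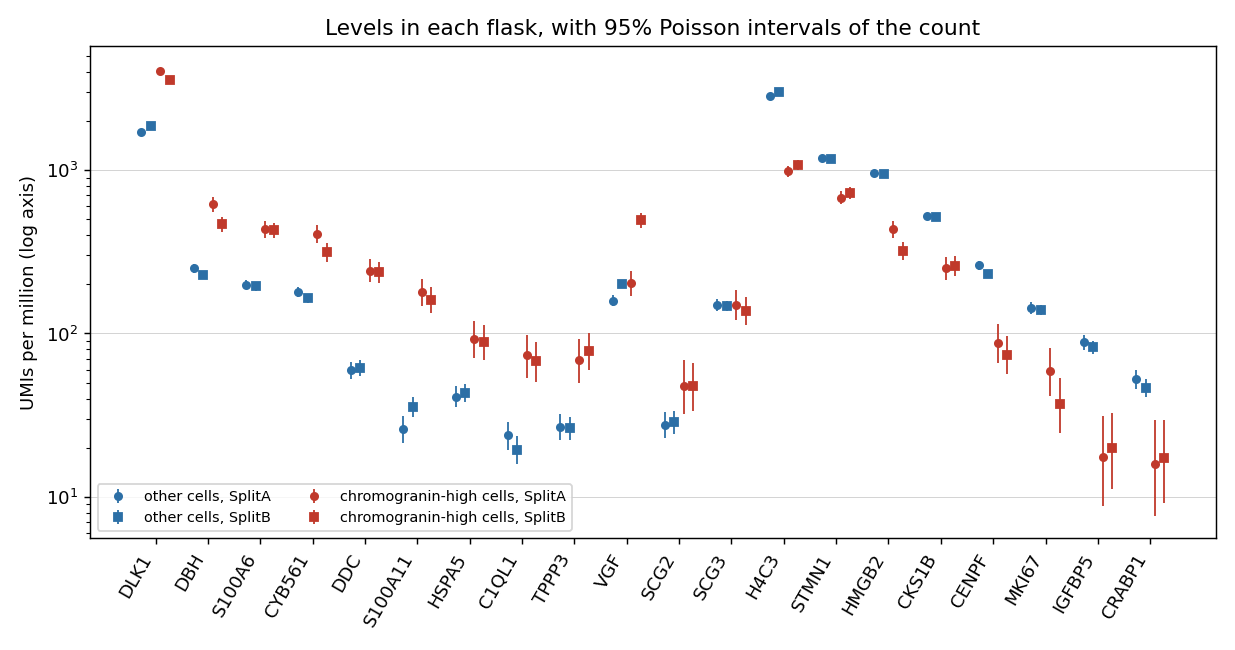
CPM (log axis) of 20 genes in the chromogranin-high (red) and other cells (blue) of SplitA (circles) and SplitB (squares), with 95% Poisson intervals of the counts. DDC sits at 243 and 238 in the members against 59.4 and 61.6, SCG3 is at 150 and 138 against 150 and 148, and IGFBP5 is at 17.6 and 19.9 against 88.3 and 82.5.

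S100 proteins are small calcium-binding proteins, and S100A11 had the largest rise among called genes with at least 300 UMIs. S100A11 (chr1:152032506-152047907, minus strand) was at 179 and 161 CPM in the SplitA and SplitB members and at 26.1 and 35.6 in the other cells. The ratio was 5.43-fold (log2 2.44, SE 0.14, adjusted p = 9.7e-61, edgeR). At least 1 S100A11 UMI was found in 48% and 32.3% of the members, against 5.89% and 8.28% of the other cells. S100A6 was at 433 and 427 against 199 and 194 (log2 1.13, SE 0.09, adjusted p = 4.61e-32, edgeR). S100A10 was at 55.9 and 30.5 against 5.08 and 6.19 (log2 2.87, SE 0.32, adjusted p = 4.2e-17, edgeR), and 45.7% of its UMIs in the SplitA members came from 1 cell. DDC and S100A11 were found together in 36% of the SplitA members (25.2 to 47.9%) and 28% of the SplitB members (19.1 to 38.2%), against 3.02% and 4.02% of the other cells.

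These S100 genes were listed as markers of the mesenchymal state of neuroblastoma, so the whole list was read. Of 26 listed genes 13 were tested, 4 were higher (S100A11, S100A6, S100A10 and VIM) and TWIST1 was lower. The summed level was 2729 and 2622 CPM in the members and 2080 and 2099 in the other cells, and LGALS1 held 67.9% of it. PRRX1, WWTR1, CCN2, ANXA1 and COL1A2 had no UMI in members or other cells, and FOSL1, NOTCH1 and YAP1 had none in the members and 1 to 3 per flask in the other cells where any was seen. FN1, CD44, CCN1 and FOSL2 had 1 or 2 UMIs in the members of each flask. In the other cells, which hold more UMIs in total, FN1 had 3 in SplitA and 12 in SplitB and CD44 3 and 6. CCN1 had 9 and 21 there and FOSL2 22 and 20, and all of these were too low to test. Of 12 Schwann and glial markers none could be tested, and SOX10, FOXD3 and CDH19 had no UMI in members or other cells, where a count of 0 allows up to 3 UMIs per group. S100B held 58.1% of the UMIs of that list, with 7 and 2 UMIs in the members and 14 and 13 in the other cells.

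The adrenergic transcription factors set the noradrenergic identity of these cells. Their summed level was 3507 and 3529 CPM in the members against 3435 and 3384. Of 20 tested, 5 were higher and 2 lower, with a median log2 ratio of 0.00. INSM2, a zinc finger factor of neuroendocrine cells, was at 59.1 and 38.5 CPM against 17.1 and 14.2 (log2 1.62, SE 0.24, adjusted p = 4.88e-09, edgeR). DACH1 (log2 1.96) and KLF7 (log2 0.84) were higher too.

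Of 23 tested chaperones and folding enzymes of the endoplasmic reticulum, where secreted proteins fold, 9 were higher and none was lower, with a median log2 ratio of 0.47. Their summed level was 1948 CPM in the members of both flasks, against 1422 and 1484. HSPA5 (BiP) was at 92.6 and 89 against 41.1 and 43.2 (log2 1.11, SE 0.16, adjusted p = 2.82e-09, edgeR). CALR was at 219 and 139 against 98.9 and 105 (log2 0.78), HSP90B1 at 147 and 146 against 82.9 and 92.6 (log2 0.74) and SELENOS at 142 and 146 against 89.2 and 91 (log2 0.68). DESeq2 called HSPA5 (adjusted p = 0.0311) but not the other 3. The thinned fit also called HSPA5 (1.42, adjusted p = 0.00281, edgeR). CALR, HSP90B1 and SELENOS were at 0.68, 0.52 and 0.61 there and not called (adjusted p = 0.268, 0.605 and 0.403, edgeR). With cells chosen by CHGB alone HSPA5 was at 0.60 and not called (adjusted p = 0.104, edgeR). With cells chosen by CHGA alone it was at 1.07 (adjusted p = 5.81e-07, edgeR). Of 32 tested genes of signal peptide recognition and translocation into this compartment, none was higher and 2 were lower. They were SRP9 (log2 -0.42) and COPE, a coat protein of transport vesicles (log2 -0.33). DESeq2 called neither (adjusted p = 0.286 and 0.966). In the thinned fit they were at -0.23 and -0.24, not called (adjusted p = 0.795 and 0.837, edgeR). Among cells below the median in cycle gene UMIs they were at -0.08 and -0.395, not called (adjusted p = 0.855 and 0.173, edgeR). Over all genes tested, 2.91% were higher and 3.55% were lower.

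The remaining genes among the 12 largest rises were C1QL1, TPPP3, NANOS1, THSD7A, C1orf53 and DFFA. C1QL1, a secreted protein of the C1q family, was at 73.5 and 67.7 CPM against 23.8 and 19.5 (log2 1.72, SE 0.20, adjusted p = 5.55e-15, edgeR). TPPP3, which binds tubulin, was at 68.7 and 78.3 against 26.8 and 26.4 (log2 1.48, SE 0.19, adjusted p = 1.21e-12, edgeR). NANOS1, an RNA-binding repressor of translation, had a log2 ratio of 1.29, THSD7A 1.16, C1orf53 1.11 and DFFA, an inhibitor of the apoptotic nuclease, 1.11. In the thinned fit these 4 were at 0.928, 1.085, 0.409 and 0.879, and none was called (adjusted p = 0.403, 0.299, 0.917 and 0.651, edgeR). DESeq2 called NANOS1 (adjusted p = 0.021) but not THSD7A (0.0749), C1orf53 (0.246) or DFFA (0.198). DLK1, a membrane ligand of the sympathoadrenal lineage, was the most abundant of the higher nuclear genes named here, at 4030 and 3557 against 1700 and 1865 (log2 1.09, SE 0.06, adjusted p = 1.35e-73, edgeR). Among 34 tested axon and neurite genes 7 were higher, with PRPH (peripherin, log2 3.04), DCX (log2 1.66) and DPYSL3 (log2 1.26) leading, and 2 were lower, STMN1 (log2 -0.74) and ELAVL4 (log2 -0.33). DESeq2 did not call DCX (adjusted p = 0.0577) or DPYSL3 (adjusted p = 0.2), and in the thinned fit DPYSL3 was at 0.48 (adjusted p = 0.924, edgeR).

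Of 54 tested genes of the G2 and M phases, 31 were lower and none was higher, with a median log2 ratio of -1.06. Of 40 tested S phase genes 19 were lower and none was higher, with a median of -0.75. DESeq2 called 11 genes of the G2 and M list and 0 of the S phase list. The summed G2 and M level was 2574 and 2249 CPM in the members, against 4804 and 4673. The summed S phase level was 1115 and 767, against 1526 and 1527.

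HMGB2, a chromatin protein of dividing cells, was at 436 and 321 CPM in the members and at 961 and 946 in the other cells (log2 -1.34, SE 0.08, adjusted p = 1.79e-56, edgeR). H4C3, a histone gene used in S phase, was at 984 and 1078 against 2857 and 2981, a 2.82-fold lower level (log2 -1.50, SE 0.07, adjusted p = 8.96e-111, edgeR). CENPF, a kinetochore protein, had a log2 ratio of -1.60, the proliferation marker MKI67 -1.57 and TOP2A, the topoisomerase of mitotic chromosomes, -1.56. The thinned fit called CENPF and MKI67 (-1.29 and -1.24, adjusted p = 0.0001 and 0.0246, edgeR). TOP2A was at -1.07 there and not called (adjusted p = 0.0656, edgeR). PIMREG, SGO1, PIF1, MCM6 and TPX2, also genes of replication or mitosis, had values from -1.62 to -1.98. Of these 5, DESeq2 called PIMREG and TPX2 (adjusted p = 0.0413 for both). The thinned fit called TPX2 (-2.19, adjusted p = 0.0291, edgeR). PIMREG, SGO1, PIF1 and MCM6 were at -1.16, -1.54, -0.47 and -0.88 there and not called (adjusted p = 0.535, 0.391, 0.915 and 0.751, edgeR). With cells chosen by CHGA alone, all of CENPF, MKI67, TOP2A, PIMREG, SGO1, PIF1, MCM6 and TPX2 were called. With cells chosen by CHGB alone, of these only TOP2A was called (-0.89, adjusted p = 0.00403, edgeR). CENPF and MKI67 were then at -0.57 and -0.44 (adjusted p = 0.0953 and 0.163, edgeR). PIMREG, SGO1, PIF1, MCM6 and TPX2 were at -0.75, -1.12, -1.26, -0.76 and -0.72 (adjusted p = 0.163, 0.0655, 0.0514, 0.224 and 0.0939, edgeR). At least 1 UMI of MKI67 or TOP2A was found in 30.7% of the SplitA members (20.5 to 42.4%) and 26.9% of the SplitB members (18.2 to 37.1%), against 52.1% and 55.3% of the other cells. With every cell thinned to 2000 UMIs and the members as first chosen, the shares were 18.7% and 9.68%, against 31.3% and 31.5%.

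Among less cycling cells, some calls were kept and others were lost. When the choice was repeated among the cells below the median in summed cycle gene UMIs, DDC (log2 1.71, adjusted p = 2.71e-12, edgeR), S100A11 (log2 1.87, adjusted p = 2.46e-10), DBH (log2 0.89, adjusted p = 1.48e-07) and HSPA5 (log2 1.24, adjusted p = 4.77e-05) were higher. Of 71 named genes that were called and could be tested there, 33 passed again and 38 did not. Among the higher genes that did not pass were NMB (log2 0.21, adjusted p = 0.679, edgeR), VIM (log2 0.23, adjusted p = 0.618), SELENOS (log2 0.23, adjusted p = 0.621), PTPRN (log2 0.63, adjusted p = 0.214) and SYT5 (log2 0.55, adjusted p = 0.321). H4C3 was no longer called there (log2 -0.09, adjusted p = 0.77, edgeR). With fewer cells, this comparison called 83 genes higher and 79 lower of 7024 tested.

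IGFBP5 had the largest fall among called genes with at least 300 UMIs, and it is on neither cycle list. This secreted binding protein of insulin-like growth factors (chr2:216672105-216695549, minus strand) was at 17.6 and 19.9 CPM in the members and at 88.3 and 82.5 in the other cells. It was 4.49-fold lower (log2 -2.17, SE 0.23, adjusted p = 1.12e-18, edgeR), and at least 1 UMI was found in 12% and 11.8% of the members against 31.3% and 29.2% of the other cells. In the low-cycle cells its log2 ratio was -2.75 (adjusted p = 5.32e-08, edgeR). In the thinned fit, with its own members, it was -0.85 and not called (adjusted p = 0.355, edgeR). With cells chosen by CHGB alone it was -0.58 and not called (adjusted p = 0.116, edgeR), and by CHGA alone -1.93 (adjusted p = 8.95e-11, edgeR). CRABP1, which binds retinoic acid in the cytosol, was lower too (log2 -1.55, SE 0.26, adjusted p = 4.61e-07, edgeR), as were the membrane proteins LAYN (log2 -1.59) and MARCHF11 (log2 -1.61). In the thinned fit CRABP1 was at -0.62, LAYN at -1.59 and MARCHF11 at -0.49, and none of the 3 was called (adjusted p = 0.757, 0.355 and 0.858, edgeR). DESeq2 on the unthinned sums called none of them either (adjusted p = 0.0876, 0.328 and 0.157).

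**Figure D4:**
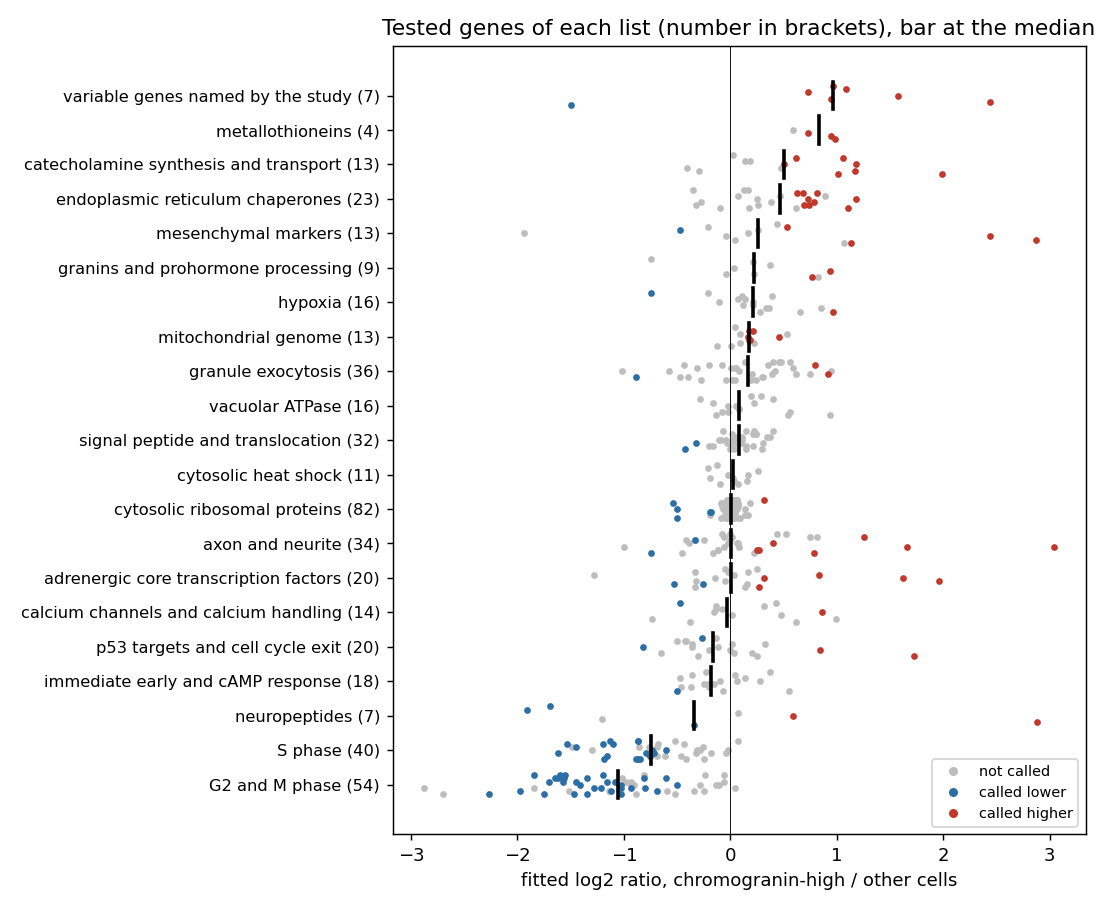
Fitted log2 ratio (x axis) of every tested gene of each list, with red points called higher, blue points called lower, grey points not called and a bar at the list's median. The G2 and M phase list has its median at -1.06 and the catecholamine list at 0.51.

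The levels also changed within and below the members. Cells were divided into those without a chromogranin UMI, the other cells below and above the median of the rest, and the members below and above their own median. From the first to the last class, DDC went from 52.3 to 286 CPM in SplitA and from 48.5 to 306 in SplitB, and DLK1 from 1532 to 4779 and from 1629 to 4156. S100A11 went from 20.3 to 255 and from 14.7 to 200. IGFBP5 went the other way, from 110 to 8.32 and from 115 to 16.7, as did H4C3, from 3062 to 870 and from 2981 to 601. Not every step between these classes went the same way. In the second class, the lower of the other cells with a chromogranin UMI, H4C3 was at 3135 and 3631. S100A11 was at 8.98 and 28.5 there, DDC at 47.1 and 53.2 and DLK1 at 1414 and 1620. DBH reached 737 in the upper SplitA members but 423 in the upper SplitB members, which was below the 502 of the lower SplitB members.

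**Figure D5:**
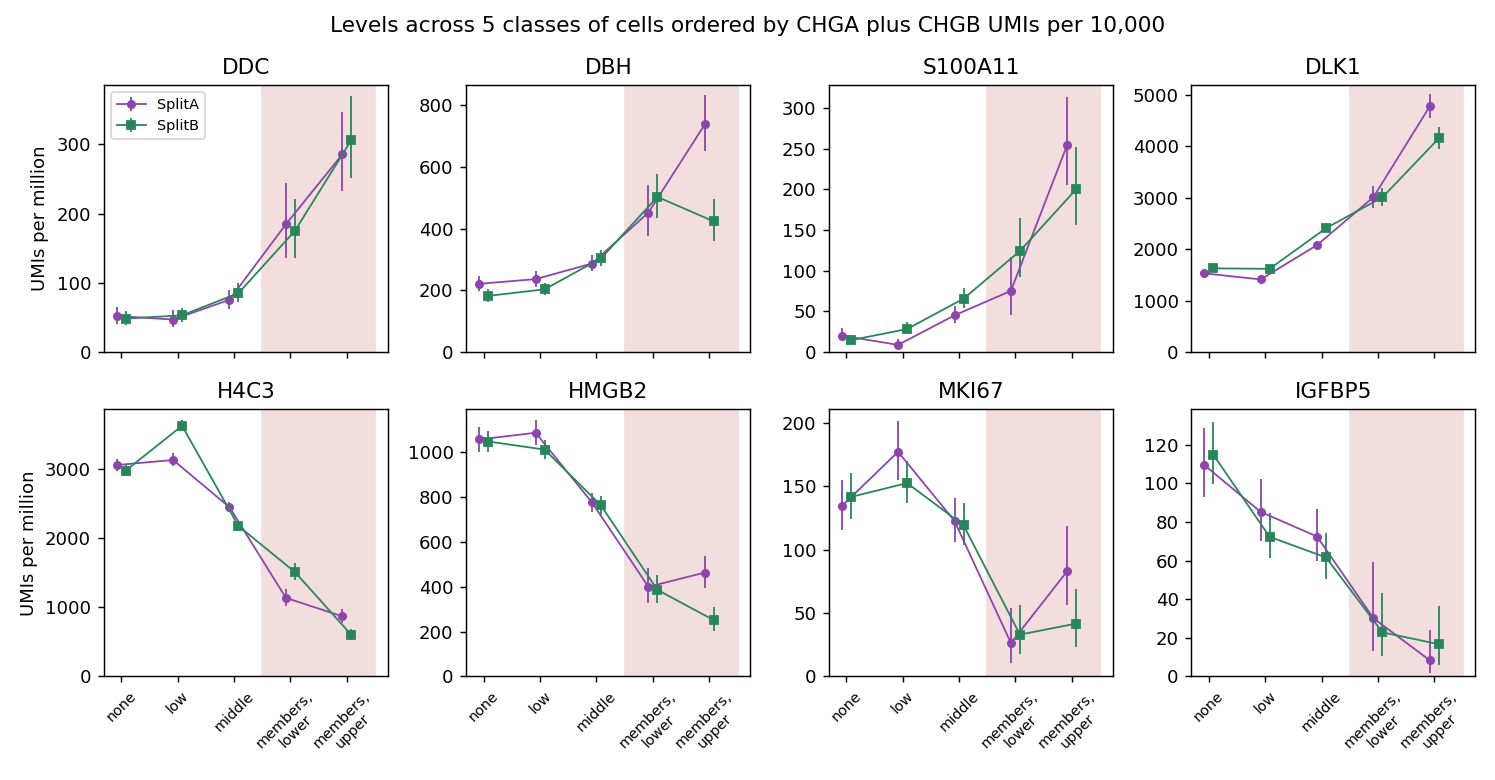
CPM (y axis, from 0) of 8 genes in 5 classes of cells ordered by their chromogranin level, for SplitA (circles) and SplitB (squares), with 95% Poisson intervals; the shaded classes are the members. DDC in SplitA goes from 52.3 in the cells without a chromogranin UMI to 286 in the upper members, and IGFBP5 from 110 to 8.32.

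Members with and without a CHGB UMI are set side by side here. This split is also one of chromogranin level (a median of 14.5 against 9.29 UMIs per 10000 in SplitA and 12.2 against 10.9 in SplitB). S100A11 was at 206 CPM in the SplitA members with CHGB and 76.3 in those without, and at 197 and 69.5 in SplitB. S100A6 was at 501 against 176 and at 508 against 227. DDC was at 267 against 153 and at 262 against 176, with counting intervals that overlap in both flasks. The summed S phase level was 1208 against 763 and 886 against 473, and that of G2 and M 2645 against 2304 and 2536 against 1534. H4C3 was at 1145 against 374 and at 1154 against 890, and GAL at 1107 against 565 and at 947 against 468. These values were not tested.

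The cells chosen by CHGA alone and by CHGB alone shared most of their comparison cells, so their values are given side by side and not as independent evidence. S100A11 had a log2 ratio of 2.05 in the CHGA-chosen and 2.58 in the CHGB-chosen cells, DDC 1.89 and 1.49, and S100A6 0.89 and 1.19. VGF was at -0.01 in the first and 1.35 in the second, and SCG2 at 0.63 and 1.20. VGF and SCG2 were called only in the second (adjusted p = 0.00595 and 0.00559, against 0.988 and 0.0812 in the first, edgeR). CRABP1 was at -1.34 and 0.03, and MKI67 at -1.75 and -0.44. CRABP1 and MKI67 were called only in the first (adjusted p = 7.22e-05 and 2.41e-13, against 0.977 and 0.163 in the second, edgeR). Whether the choices differ in these genes was not tested.

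Several technical values moved with the members. The median cell had 7133 UMIs among the SplitA members and 7293 among the SplitB members, against 6211.5 and 6452 in the other cells, and 2017 and 1970 genes against 1858.5 and 1911. The median mitochondrial share was 9.24% and 9.19% against 8.43% and 8.54%. Of 13 mitochondrial genes 6 were higher, led by MT-ND5 (log2 0.45, adjusted p = 6.05e-10, edgeR). The part of depth and mitochondrial share in the results was not tested beyond the alternatives below. GAL, which the rule caps, was at 992 and 809 CPM in the members and at 471 and 507 in the other cells. The galanin limit removed 245 cells, of which 140 (57.1%) had a chromogranin level at or above that of the lowest member.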

How the data were processed

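SH-SY5Y cells of both flasks were measured in 1 mRNA library and 1 hashtag library with a kit that reads 3′ ends. Per the methods and processing notes, the authors aligned reads to GRCh38 with STAR 2.7 and counted UMIs with Cell Ranger 4.0.0, and they deposited the UMI counts of 33538 genes and 2 hashtags without normalization. The annotation version is not given in the sources used here. Symbols were matched for 33113 identifiers, and positions are those of GENCODE 44.

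Cells with 1 hashtag at least 3 times the other, and the other at most 185, were assigned to a flask (SplitA for Hashtag-1, SplitB for Hashtag-2), which kept 2784 cells. Of these 2094 had at least 1000 genes, 1920 a mitochondrial share under 15% and 1675 under 20 GAL UMIs per 10000. All 2879 barcodes are distinct. Cells with both hashtags were left out as multiplets, and doublets within a flask were not called.

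Counts were summed per flask and group without CHGA and CHGB, and genes with at least 50 UMIs over the 4 sums were tested with edgeR 4.0.16 (TMM, glmQLFit, flask as block, Benjamini-Hochberg) in R 4.3.3. GAL was not tested because the rule caps it. The block pairs members and other cells of the same flask by construction. DESeq2 1.42.0 was an alternative. CPM values have the same totals as denominator, and intervals are exact Poisson or exact binomial at 95%; they cover counting error only. Log2 ratios are fitted values unless a flask is named.

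The members, lists and tests were chosen with earlier results of these data known. The named genes are the 12 largest rises and 12 largest falls among called genes with the same direction in both flasks and at least 300 UMIs, all tested granin and processing genes, 8 variable genes that the study named on these cells, and up to 4 called genes of each other list. The 2 alternatives concerning single cells with many UMIs of a gene were added after seeing the data. On simulated data with 9805 genes tested for this comparison, of which 200 were changed 2-fold, 79% were recovered and 1.86% of calls were unchanged genes. The changed genes were drawn from those with at least 300 UMIs. All genes had the same fixed spread, the change was alike in both flasks, and no single cell held many UMIs of a gene. The simulated shares therefore do not measure the share of false calls in the real data. Tables were handled with pandas 2.3.3 and numpy 2.4.6, intervals computed with scipy 1.17.1, and figures drawn with matplotlib 3.10.9 under Python 3.11.15.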

Additional observations from a re-analysis of the deposited data

How the results depend on the processing

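DESeq2 called 34 genes higher and 46 lower, in place of 286 and 349. The counts were 169 and 188 with the top 5% of cells, 135 and 186 under 10 GAL UMIs per 10000, 743 and 748 with no limit on GAL, 129 and 151 with a mitochondrial share under 10%, 23 and 30 with every cell thinned to 2000 UMIs and the members chosen again, 83 and 79 in the cells low in cycle genes, and 74 and 37 with cells chosen by CHGB alone. DESeq2 was run on the same cells, sums and 9839 genes as edgeR. In each of the others the cells, UMIs or genes tested differed, and the cause was not tested further. The fit with no replicate block called 305 and 363, and the other alternatives stayed within 1.5 times. Counts without 1 flask could not be tested. The ratio of CHGB in CHGA-chosen cells (2.82 and 2.08 in the flasks alone) and of CHGA in CHGB-chosen cells (2.00 and 1.54) stayed past the threshold in every alternative with a test.

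Of 78 named genes that were called, 72 kept their direction in every alternative with a test, and 11 also stayed past the threshold in all of them: C1QL1, CYB561, DBH, DDC, DLK1, HMGB2, PRPH, S100A10, S100A11, S100A6 and TPPP3. Of these, PRPH (52 UMIs) could be tested neither by DESeq2 nor in the thinned fit nor in the low-cycle cells, and S100A10 not in the thinned fit. DESeq2 called 28 of the 73 named genes for which it gave an adjusted p. Signs turned as follows. With cells chosen by CHGA alone, VGF was at -0.008, MT1X at -0.077 and MT2A at -0.86. With cells chosen by CHGB alone, CRABP1 was at 0.026 and CCND1 at 0.041. In the thinned fit NMU was at 0.094. Setting the highest cell of each sum to the second highest gave 261 and 315 calls and put MT2A at -0.31, VGF at 0.33 and CARTPT at 0.87, the last no longer called. In SplitA and SplitB alone, CARTPT was at -0.91 and 4.19, GADD45G at -1.53 and 2.54, and MT2A at -0.037 and 1.00. Without its top member cell, CARTPT was at -1.45 and MT2A at -0.14 in SplitA, and MT1X was at -0.16 and MT2A at -0.78 in SplitB. Depth limits the genes with few UMIs: PCSK6 had 51 over the 4 sums, and its log2 ratio of 0.82 had an SE of 0.57.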

Other observations

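Among the genes that the study named as variable in these cells, 6 of 7 tested were higher in the members and H4C3 was lower, but this list was chosen on the same cells. The metallothioneins MT1X (log2 0.95) and MT2A (log2 0.73), which bind metals, were called higher, yet 1 SplitB member held 59.1% of the MT1X and 71.1% of the MT2A UMIs of its group, and in SplitA MT2A was at 52.7 CPM in the members and 54.1 in the other cells. TFPI2, a secreted protease inhibitor, was at 41.5 and 58.4 against 13.9 and 19.8 (log2 1.57, adjusted p = 4.75e-09, edgeR), with 63.6% of the UMIs of the SplitB members in 1 cell, without which the SplitB ratio was 0.116 in place of 1.56. At least 1 UMI was found in 10.8% of the SplitB members and 9.47% of the other cells. In the thinned fit TFPI2 was at 1.32 and not called (adjusted p = 0.411, edgeR). NDUFA4L2, a gene induced by hypoxia, was at 55.9 and 70.4 against 32.1 and 33.3 (log2 0.97), with 37.1% of the UMIs of the SplitA members in 1 cell, without which the SplitA ratio was 0.155 in place of 0.80. It was at 0.006 in the thinned fit and 0.001 among the cells low in cycle genes (edgeR adjusted p = 0.998 and 0.999). Of 16 tested hypoxia genes it alone was higher and HILPDA was lower (log2 -0.74).

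Over all genes tested, 2.91% were higher and 3.55% lower, and these shares stand beside each count in this paragraph. Of 18 tested immediate early and cAMP response genes none was higher and IER2 was lower (log2 -0.50). IER2 was not called by DESeq2 (adjusted p = 0.835). It was at -0.27 in the thinned fit and -0.41 among the cells low in cycle genes, called in neither (adjusted p = 0.885 and 0.359, edgeR). Of 20 tested genes of a list of p53 targets and cell cycle regulators, the cyclin-dependent kinase inhibitor CDKN1C was higher (log2 0.85). It was at 0.31 among the cells low in cycle genes and 0.68 in the thinned fit, called in neither (adjusted p = 0.514 and 0.497, edgeR). GADD45G (log2 1.72) was higher by the fit but at 1.6 against 4.62 CPM in SplitA. CDKN2C (log2 -0.82) and CCND1 (log2 -0.27) were lower, and DESeq2 called neither (adjusted p = 0.258 and 0.437). In the thinned fit they were at -0.49 and -0.075, not called (adjusted p = 0.766 and 0.94, edgeR). Among the cells low in cycle genes they were at -0.44 and -0.21, not called (adjusted p = 0.507 and 0.344, edgeR). None of 11 tested cytosolic heat shock genes was called. Of 82 tested cytosolic ribosomal protein genes RPL22 was higher (log2 0.31), but DESeq2 did not call it (adjusted p = 0.0682). It was at 0.155 in the thinned fit and 0.234 among the cells low in cycle genes, called in neither (adjusted p = 0.76 and 0.162, edgeR). Its paralog RPL22L1 was lower, at 477 and 652 CPM against 789 and 814 (log2 -0.50, adjusted p = 1.29e-08, edgeR). RPL22L1 was not called by DESeq2 (adjusted p = 0.453) or in the thinned fit (-0.20, adjusted p = 0.672, edgeR). Among the cells low in cycle genes RPL22L1 was called (-0.74, adjusted p = 4.34e-06, edgeR). Reads shared between such paralogs can make their counts uncertain. In all 5 were lower, the others being RPL39L (log2 -0.50), RPL26L1 (log2 -0.54), RPS7 and RPL35A (both log2 -0.19). Of 14 tested calcium genes, set against 2.91% higher and 3.55% lower over all genes, CACNA2D2, a calcium channel subunit, was higher (log2 0.86). NNAT was lower (log2 -0.47), with -0.98 in SplitA and -0.146 in SplitB. DESeq2 called neither CACNA2D2 nor NNAT (adjusted p = 0.557 and 0.999). In the thinned fit they were at 0.64 and -0.22, not called (adjusted p = 0.766 and 0.881, edgeR). Among the cells low in cycle genes they were at 0.85 and -0.38, not called (adjusted p = 0.0606 and 0.306, edgeR).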
